A study of Rattus norvegicus with 6 samples.

Results

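The genes described here are 34 targets that low oxygen is known to induce and that lie outside glycolysis, the enzyme chain that breaks down glucose. Members were the named list of targets, matched by gene symbol to the probe sets of the array; where a gene had several, the brightest on average over the arrays was used. Of the 34 genes 32 were measured, among 14506 genes tested in all. Rora and Tmem45a were not analysed here.

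Cells sense falling oxygen through the hypoxia-inducible factors, HIF. When oxygen is plentiful, prolyl hydroxylases mark the HIF alpha subunits for destruction by the ubiquitin ligase that contains Vhl. When oxygen is scarce the alpha subunits persist, pair with Arnt, bind short DNA elements and switch on genes for glucose use, blood vessels, iron uptake, mitochondrial turnover and growth arrest. The carotid body, at the fork of the carotid artery, senses arterial oxygen with its catecholamine-making glomus cells, which are known for high levels of the HIF alpha subunit encoded by Epas1.

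Neurospheres are free-floating clusters that dissociated carotid body cells form in culture; here, from adult rats, they were grown for 10 days in neural crest medium and measured on 6 Affymetrix arrays. The 3 arrays labelled differentiated came from spheres at 3% oxygen, in medium that lacked the mitogens. The 3 arrays labelled undifferentiated came from normoxic spheres whose complete medium held ET-1, EGF, FGF and IGF-1. Oxygen and mitogens therefore changed together and cannot be told apart, and since no label ties an array to its own animal or culture, the p-values cover no more than array-to-array spread, possibly technical.

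The values are the authors' log2 values as deposited, with array medians of 5.05 to 5.13; over all probe sets, arrays of a group correlated at 0.9857 to 0.9927 and arrays of different groups at 0.959 to 0.9696. The glomus marker Th, which makes catecholamines and would mark the differentiated cells, read 10.73, 11.32 and 10.65 on the arrays labelled differentiated, against 13.76, 13.59 and 13.91 on the arrays labelled undifferentiated. That order goes against the labels. The groups are therefore called only by what they are labelled, and rose and fell always describe the arrays labelled differentiated relative to those labelled undifferentiated. Whether the labels of the groups were exchanged is not known here; if they were, every rise would be a fall and every fall a rise, and the arrays labelled differentiated would be those of the normoxic spheres with mitogens. Of 10 neuronal markers 1 rose (10%) and 5 fell (50%), and of 7 measured glial markers 1 rose and 1 fell (14.3% each). Over all genes 14.7% rose and 14.9% fell at the threshold given below.

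The question asked of these genes was which of them were lower, higher or not shown to differ in the spheres labelled as kept at low oxygen. Of the 32 measured genes, 13 fell, 6 rose and 13 did not pass. The falls included the mitophagy receptor Bnip3, the growth-suppressing stress gene Ndrg1, the secreted stanniocalcin Stc2, the repressor Bhlhe41 and the disulfide oxidase Ero1a, and 6 of the 13 falls were larger than 1 on the log2 scale, a size of fall that 4.8% of all genes reached. The rises included the transferrin receptor Tfrc, the urokinase receptor Plaur and the annexin Anxa2, and all 6 were smaller than 1, a size of rise that 3.2% of all genes reached.

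A gene was called at an adjusted p under 0.05 from limma, a linear model fitted to all 14506 genes, with Benjamini-Hochberg adjustment over all of them. At that threshold 29.5% of all genes were called, 14.9% lower and 14.7% higher. Among the 32 target genes 40.6% were called lower, above that background, and 18.8% higher, close to it. With the labels exchanged these shares would be 40.6% higher, against a background of 14.9%, and 18.8% lower, against 14.7%. The median log2 fold change of the 32 genes was -0.21, against 0.06 for all genes tested, and it was -0.06 without undifferentiated replicate 3. In 13 of the 32 genes every array labelled differentiated lay below every array labelled undifferentiated, a pattern that 19.8% of all genes showed, and in 6 every one lay above, which 22.5% of all genes showed (42.3% in either direction).

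**Figure D1:**
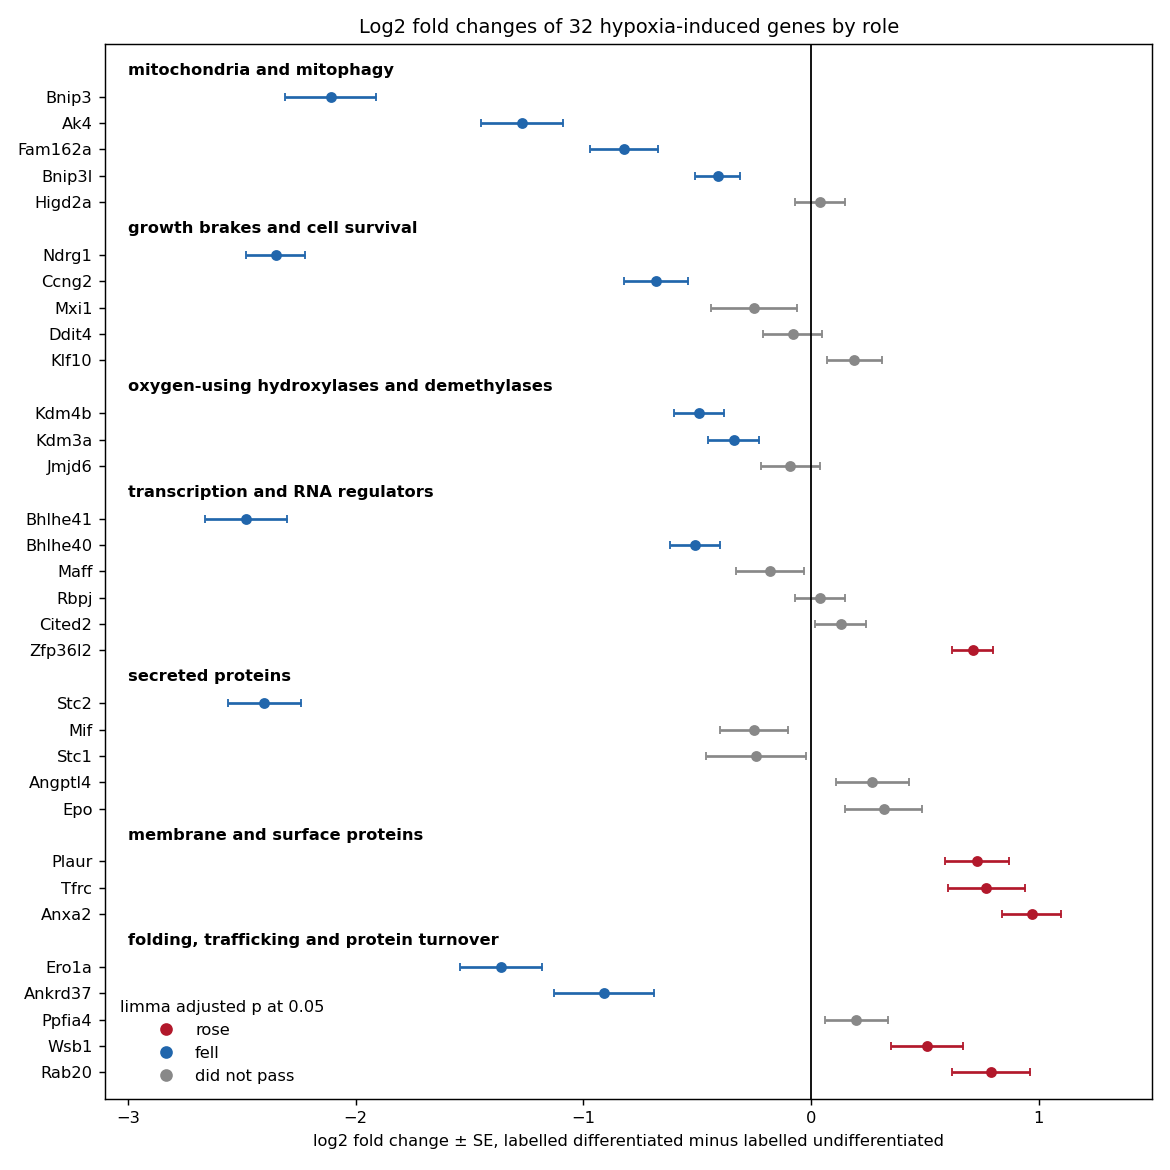
Log2 fold change ± SE (3 arrays a group) of the 32 measured hypoxia-induced genes, labelled differentiated minus labelled undifferentiated, grouped by role, with genes coloured by call. Bnip3, Ndrg1, Bhlhe41 and Stc2 lie furthest below 0, between -2.11 and -2.48, and the 3 measured genes of membrane and surface proteins all lie above 0.

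The target genes are taken by role from here, and the counts of each role are small. Over all genes 14.9% fell and 14.7% rose. Among 5 genes of mitochondria, 4 fell and 0 rose. Bnip3, a mitophagy receptor of the outer mitochondrial membrane, read 8.57, 9.37 and 8.53 on the arrays labelled differentiated, against 10.75, 11.06 and 11.00 on the arrays labelled undifferentiated. The groups did not overlap, and differentiated replicate 2 stood highest in its group. Bnip3 was 4.33-fold lower, a log2 fold change of -2.11 ± 0.20 (SE, limma adjusted p = 1.27e-05), and its other probe set fell by 2.08; probe sets of 1 gene can share probes with near-identical copies elsewhere, which makes their values less certain. The paralog Bnip3l, another mitophagy receptor, read 9.98, 10.13 and 9.86 in the arrays labelled differentiated, against 10.39, 10.36 and 10.45 in those labelled undifferentiated. It fell by 0.41 ± 0.10 (adjusted p = 0.0103), without overlap.

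Ak4, an adenylate kinase of the mitochondrial matrix, had values of 5.85, 6.36 and 5.89 in the arrays labelled differentiated, against 7.03, 7.20 and 7.67 in the arrays labelled undifferentiated. It fell by 1.27 ± 0.18 (adjusted p = 0.000277). Fam162a, a mitochondrial protein tied to hypoxic cell death, fell by 0.82 ± 0.15 (adjusted p = 0.00138), with means of 9.55 ± 0.33 in the arrays labelled differentiated, against 10.37 ± 0.08 in those labelled undifferentiated (SD, n = 3 each). In Ak4 and Fam162a the groups were apart, and differentiated replicate 2 again came nearest to the arrays labelled undifferentiated. Higd2a, an assembly factor of the respiratory chain, did not pass, with a difference of 0.04 ± 0.11 (adjusted p = 0.818) that was -0.05 without undifferentiated replicate 2.

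Of 5 genes that restrain growth, 2 fell and 0 rose. Ndrg1, a stress-induced growth suppressor, read 8.98, 9.08 and 8.57 on the arrays labelled differentiated, against 11.19, 11.30 and 11.20 on the arrays labelled undifferentiated. The arrays labelled undifferentiated were close together and more than 2 log2 units above the others. Ndrg1 fell by 2.35 ± 0.13, a 5.10-fold difference (limma adjusted p = 2.63e-07). Ccng2, a cyclin that slows the cell cycle, read 7.73, 8.08 and 7.64 in the arrays labelled differentiated, against 8.27, 8.55 and 8.68 in those labelled undifferentiated, and fell by 0.68 ± 0.14 (adjusted p = 0.00319).

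The other 3 growth genes overlapped between the groups. Ddit4, which inhibits the growth kinase mTOR, read 8.85, 9.32 and 9.26 on the arrays labelled differentiated, against 9.16, 9.22 and 9.31 on the arrays labelled undifferentiated. Its difference was -0.08 ± 0.13 (adjusted p = 0.694), and 0.07 without differentiated replicate 1. Mxi1, which opposes Myc by competing for its partner Max, differed by -0.25 ± 0.19 (adjusted p = 0.378), and its 2 other probe sets by -0.14 and -0.17. Klf10, a repressor induced by TGF-beta, differed by 0.19 ± 0.12 (adjusted p = 0.295).

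The Jumonji enzymes use oxygen as a substrate, and 2 of the 3 measured fell by small amounts. Kdm4b, a histone demethylase, read 7.02, 6.89 and 7.04 on the arrays labelled differentiated, against 7.34, 7.45 and 7.61 on the arrays labelled undifferentiated. It fell by 0.49 ± 0.11 (adjusted p = 0.00472). Kdm3a, also a histone demethylase, read 7.09, 7.14 and 7.21 in the arrays labelled differentiated, against 7.36, 7.40 and 7.68 in those labelled undifferentiated, and fell by 0.34 ± 0.11 (adjusted p = 0.0415). Neither gene's groups overlapped, but the call of Kdm3a was lost without differentiated replicate 1 (adjusted p = 0.107), 2 (0.0791) or 3 (0.0661) and without undifferentiated replicate 2 (0.0546) or 3 (0.175). Jmjd6, a Jumonji oxygenase, differed by -0.09 ± 0.13 (adjusted p = 0.66), and by 0.01 without undifferentiated replicate 3.

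Among 6 measured regulators of transcription and RNA, 2 fell (33.3%) and 1 rose (16.7%), against 14.9% and 14.7% of all genes. Bhlhe41, a helix-loop-helix repressor that acts on the circadian clock, read 6.30, 6.24 and 6.17 on the arrays labelled differentiated, against 8.32, 8.65 and 9.18 on the arrays labelled undifferentiated. It had the largest fall of the 32 genes, with a log2 fold change of -2.48 ± 0.18, a 5.56-fold difference (limma adjusted p = 1.66e-06). Its paralog Bhlhe40 read 9.36, 9.51 and 9.39 in the arrays labelled differentiated, against 9.76, 9.96 and 10.08 in those labelled undifferentiated, and fell by 0.51 ± 0.11 (adjusted p = 0.0035). Both repressors were lower without overlap, Bhlhe41 by the larger amount; the difference between the paralogs was not tested.

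Zfp36l2, an RNA-binding protein that speeds mRNA decay, moved the other way. It read 8.91, 8.90 and 8.83 on the arrays labelled differentiated, against 8.26, 8.19 and 8.06 on the arrays labelled undifferentiated, and rose by 0.71 ± 0.09 (adjusted p = 0.000161). Cited2, which limits HIF by competing for its coactivators, differed by 0.13 ± 0.11 (adjusted p = 0.411). Rbpj, the DNA-binding effector of Notch signalling, differed by 0.04 ± 0.11 (adjusted p = 0.815), and by -0.05 without differentiated replicate 3. Maff, a small Maf protein, differed by -0.18 ± 0.15 (adjusted p = 0.411). In these 3 genes the groups overlapped.

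Of 5 secreted proteins 1 fell (20%) and 0 rose, against 14.9% and 14.7% of all genes. Stc2, a stanniocalcin, read 8.53, 8.00 and 8.52 on the arrays labelled differentiated, against 10.77, 10.53 and 10.96 on the arrays labelled undifferentiated. It fell by 2.40 ± 0.16, a 5.29-fold difference (limma adjusted p = 7.63e-07). The related Stc1 read 9.24, 8.14 and 8.47 in the arrays labelled differentiated, against 8.90, 8.67 and 9.01 in those labelled undifferentiated. Differentiated replicate 1 was the highest of all 6 arrays for Stc1 and the other two of its group were the lowest. The difference of Stc1 was -0.24 ± 0.22 (adjusted p = 0.482); without differentiated replicate 1 it was -0.56 and passed (adjusted p = 0.0153), and without differentiated replicate 2 it was -0.0046.

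Mif, an inflammatory cytokine, differed by -0.25 ± 0.15 (adjusted p = 0.242), with overlapping groups. Angptl4, which inhibits lipoprotein lipase, differed by 0.27 ± 0.16 (adjusted p = 0.263). Epo, the hormone of red cell production, read 3.63, 3.89 and 3.72 on the arrays labelled differentiated, against 3.26, 3.75 and 3.28 on the arrays labelled undifferentiated, a difference of 0.32 ± 0.17 (adjusted p = 0.206). All 6 values of Epo lay below 4.44, the 40th percentile of the probe set means, and whether they stood above background is not known here.

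The 3 measured membrane and surface proteins all rose. Anxa2, an annexin that binds membrane lipids in a calcium-dependent way, read 12.03, 12.15 and 11.93 on the arrays labelled differentiated, against 11.21, 10.82 and 11.17 on the arrays labelled undifferentiated. It had the largest rise of the 32 genes, at 0.97 ± 0.13, a 1.96-fold difference (limma adjusted p = 0.000168). Tfrc, the transferrin receptor that brings iron into cells, read 8.53, 8.84 and 8.11 in the arrays labelled differentiated, against 7.55, 7.91 and 7.72 in those labelled undifferentiated, and rose by 0.77 ± 0.17 (adjusted p = 0.00475). Plaur, the urokinase receptor of the cell surface, read 8.69, 8.61 and 8.23 in the arrays labelled differentiated, against 7.95, 7.57 and 7.80 in those labelled undifferentiated. Plaur rose by 0.73 ± 0.14 (adjusted p = 0.00197). None of the 3 overlapped between the groups, and differentiated replicate 3 was the lowest of its group in each.

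Genes of folding, trafficking and protein turnover were divided, with 2 falls and 2 rises among 5. Ero1a, which oxidises protein disulfide isomerase in the endoplasmic reticulum, read 7.94, 8.67 and 8.28 on the arrays labelled differentiated, against 9.53, 9.92 and 9.51 on the arrays labelled undifferentiated. It fell by 1.36 ± 0.18 (adjusted p = 0.000139). Ankrd37, an ankyrin repeat protein, read 4.57, 4.50 and 4.86 in the arrays labelled differentiated, against 5.22, 5.32 and 6.13 in those labelled undifferentiated, and fell by 0.91 ± 0.22 (adjusted p = 0.00873). Undifferentiated replicate 3 stood above the other two of its group for Ankrd37, and the fall was 0.63 without it, with the call kept.

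Rab20, a small GTPase of membrane traffic, read 5.68, 5.77 and 5.26 on the arrays labelled differentiated, against 4.98, 4.55 and 4.82 on the arrays labelled undifferentiated, and rose by 0.79 ± 0.17 (adjusted p = 0.00431). Wsb1, an adaptor of a ubiquitin ligase, read 9.62, 9.39 and 9.12 in the arrays labelled differentiated, against 8.81, 9.17 and 8.62 in those labelled undifferentiated. Wsb1 was the gene called with overlapping groups, and it rose by 0.51 ± 0.16 (adjusted p = 0.0302). Its call was lost without differentiated replicate 1 (adjusted p = 0.115) or 2 (0.0579) and without undifferentiated replicate 1 (0.0874) or 3 (0.131). Ppfia4, a liprin scaffold protein, was dim and differed by 0.20 ± 0.14 (adjusted p = 0.335), though its groups did not overlap.

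**Figure D2:**
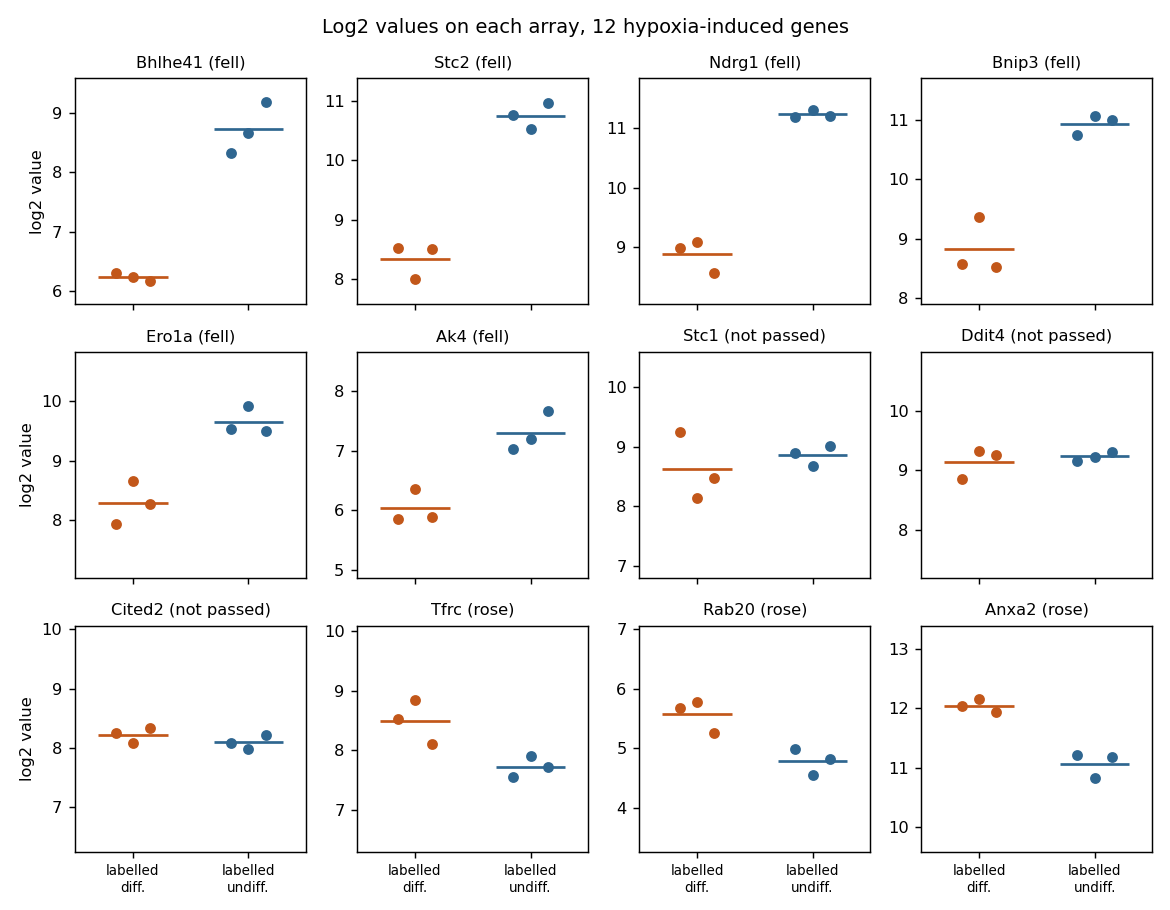
Log2 value on each of the 6 arrays for 12 hypoxia-induced genes, labelled differentiated on the left and labelled undifferentiated on the right of each panel, with points for arrays, lines for group means and the same span on every vertical axis. The 6 genes with the largest falls and the 3 with the largest rises show groups that do not overlap, and Stc1, Ddit4 and Cited2, chosen after their values were seen, show groups that do.

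The promoters below are shown because HIF binds a short core element, and they let falls and rises be read beside the same letters. They are the 250 bases before the gene start in RefSeq's GRCr8 assembly, 5′ to 3′ on the gene's strand, of the 3 genes with the largest falls and the 3 with the largest rises that the promoter table holds. Capitals mark ACGTG or GCGTG on either strand, so that CACGT and CACGC are the same elements read on the other strand, and CACGTG holds ACGTG on both strands. Ndrg1, the third largest fall, has no entry in the table.
Bhlhe41 (fell, chr4:180569356-180569605, minus strand): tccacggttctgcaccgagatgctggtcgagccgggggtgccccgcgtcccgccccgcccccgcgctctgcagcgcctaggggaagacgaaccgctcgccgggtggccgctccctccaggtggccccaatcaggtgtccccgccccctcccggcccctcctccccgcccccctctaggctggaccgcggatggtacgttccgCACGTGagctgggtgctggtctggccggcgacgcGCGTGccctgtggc
Stc2 (fell, chr10:16755258-16755507, plus strand): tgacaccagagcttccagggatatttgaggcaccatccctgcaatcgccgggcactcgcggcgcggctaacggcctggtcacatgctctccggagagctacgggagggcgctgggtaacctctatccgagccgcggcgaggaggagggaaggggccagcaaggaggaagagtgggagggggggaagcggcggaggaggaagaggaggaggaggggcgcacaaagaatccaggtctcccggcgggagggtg
Bnip3 (fell, chr1:203154963-203155212, minus strand): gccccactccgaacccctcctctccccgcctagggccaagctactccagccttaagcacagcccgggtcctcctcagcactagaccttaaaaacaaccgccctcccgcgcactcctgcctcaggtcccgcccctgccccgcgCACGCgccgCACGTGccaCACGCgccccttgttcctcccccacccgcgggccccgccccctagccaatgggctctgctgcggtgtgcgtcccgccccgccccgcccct
Anxa2 (rose, chr8:78986002-78986251, plus strand): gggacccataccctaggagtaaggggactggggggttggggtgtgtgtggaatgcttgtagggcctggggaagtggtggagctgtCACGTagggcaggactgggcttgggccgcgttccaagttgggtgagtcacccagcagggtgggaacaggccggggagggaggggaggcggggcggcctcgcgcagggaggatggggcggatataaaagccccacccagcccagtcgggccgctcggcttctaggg
Rab20 (rose, chr16:84721177-84721426, plus strand): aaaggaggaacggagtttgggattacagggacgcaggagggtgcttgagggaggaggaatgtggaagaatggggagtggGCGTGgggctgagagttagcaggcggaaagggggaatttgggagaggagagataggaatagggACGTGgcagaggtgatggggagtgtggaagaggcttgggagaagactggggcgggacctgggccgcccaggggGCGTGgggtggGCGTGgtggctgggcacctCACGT
Tfrc (rose, chr11:81690319-81690568, minus strand): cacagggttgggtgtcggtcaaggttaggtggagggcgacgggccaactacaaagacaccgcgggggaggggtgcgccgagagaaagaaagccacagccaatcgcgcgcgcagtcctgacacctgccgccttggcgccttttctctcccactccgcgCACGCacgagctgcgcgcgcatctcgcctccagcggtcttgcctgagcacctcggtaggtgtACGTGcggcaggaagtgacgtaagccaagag

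In these windows Bhlhe41 and Bnip3 each hold a CACGTG, which begins 48 bases before the start in Bhlhe41 and 99 bases before it in Bnip3. Bnip3 also has GCGTG on the other strand on both sides of it, beginning 108 and 90 bases before the start. Stc2, whose fall was among the largest, has none of these letters in its window, while Rab20, which rose, has 5 matches. Of the 27 measured target genes in the table, 22 (81.5%) held either element, against 47.0% of the promoters of the genes tested and 36.7% of all promoters in the table. Those 22 were 8 of 10 genes that fell, 4 of 6 that rose and 10 of 11 that did not pass. The element was therefore found in genes of each direction, and a match is a description of the letters, not of binding. Because the genes were listed as targets that low oxygen induces, a share above the background carries no information about these arrays.

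In a bulk measurement, fewer cells of a type and less RNA per cell cannot be told apart. Of 17 measured glomus cell markers 16 fell and 0 rose, with a median of -2.54. The mean log2 value over the list was 7.13 to 7.53 in the arrays labelled differentiated, against 9.90 to 9.96 in the arrays labelled undifferentiated. The 13 target genes that fell had array means of 7.79 to 7.99 in the arrays labelled differentiated, against 8.94 to 9.27 in those labelled undifferentiated. They were chosen for being lower there, so sharing a direction with the glomus markers follows from the choice. Differentiated replicate 2 had the highest mean of its group in both lists, and it was the highest of its group in 8 of the 13 genes that fell. This was not particular to these lists. The same array also had the highest mean of its group over all genes tested, at 5.77 against 5.75 and 5.73. For the target genes that rose it was highest too, at 8.94 against 8.91 and 8.58. Among the arrays labelled undifferentiated, replicate 3 was the highest in 9 of the 13 genes that fell and replicate 1 the lowest in 10, while the glomus list means of that group were nearly equal. In the 13 target genes that did not pass, replicate 3 was the highest in 8, and replicates 1 and 2 were the lowest in 6 each. No glomus marker can be called absent, since background is unknown here, and the part of the glomus markers in the falls was not tested.

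Markers of mesenchyme and of dividing cells were mostly higher on the arrays labelled differentiated. The rising target genes were chosen for being higher there, so sharing that direction follows from the choice. Of 12 mesenchyme markers 10 rose and 1 fell, with list means of 10.43 to 10.52 in the arrays labelled differentiated and 9.19 to 9.42 in those labelled undifferentiated. All 12 mitosis genes rose, with means of 6.33 to 6.57 in the arrays labelled differentiated and 5.09 to 5.35 in those labelled undifferentiated. Going by the labels, it was the medium of the arrays labelled differentiated that lacked the mitogens. The 6 target genes that rose had means of 8.58 to 8.94 in the arrays labelled differentiated, against 8.03 to 8.13 in those labelled undifferentiated. Within the arrays labelled differentiated, replicate 3 was the lowest in all 6 rising genes, and the highest in the mesenchyme mean, at 10.52. For replicates 1, 2 and 3 the means of the rising genes were 8.91, 8.94 and 8.58. Mitosis means had the same order, at 6.34, 6.57 and 6.33, though replicates 1 and 3 were nearly equal. Macrophage means also had it, at 6.84, 7.43 and 6.77, and smooth muscle means, at 7.07, 7.16 and 7.14, did not. The order was not particular to these lists. Means over all genes tested had it, at 5.75, 5.77 and 5.73, as did the target genes that fell, at 7.80, 7.99 and 7.79. Of 7 smooth muscle markers 4 rose and 0 fell, and of 8 endothelial markers 1 rose and 2 fell. Macrophage markers were divided, with 3 rises and 2 falls among 10, and overlapping means of 6.77 to 7.43 in the arrays labelled differentiated and 6.66 to 7.23 in those labelled undifferentiated. The part of these markers in the rises was not tested.

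**Figure D3:**
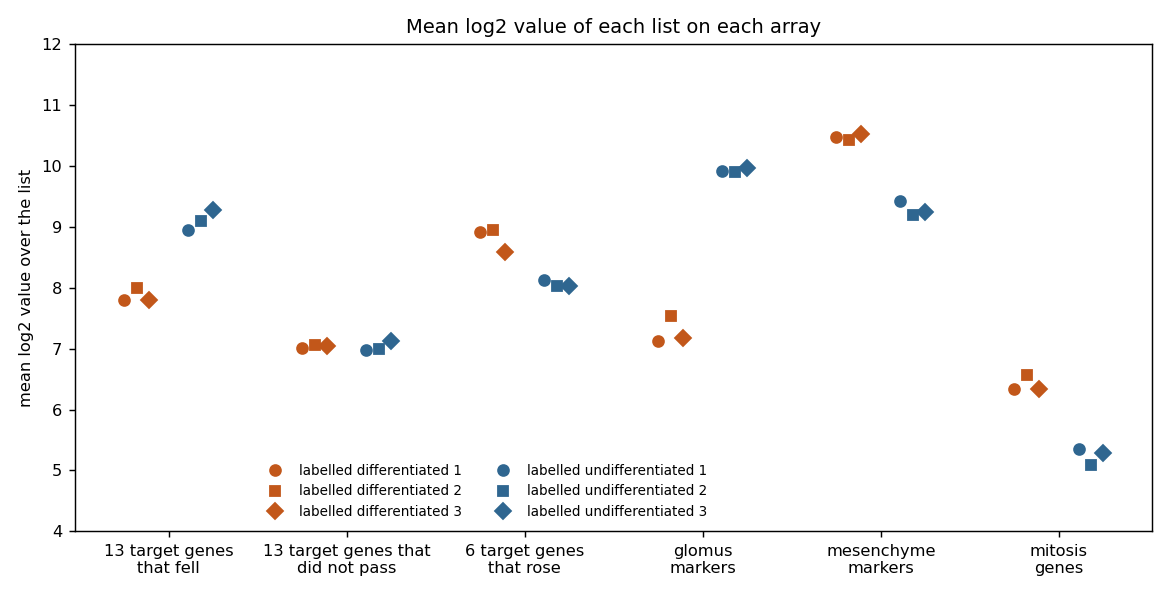
Mean log2 value over each gene list on each of the 6 arrays, with symbols for replicate numbers and colours for groups; heights are compared within a list only. The genes that fell and the glomus markers are lower on the arrays labelled differentiated, at 7.79 to 7.99 and 7.13 to 7.53, and the genes that rose, the mesenchyme markers and the mitosis genes are higher there. The genes that fell and that rose were chosen by this same comparison, so the direction of their means was fixed by the choice.

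Other genes of the pathway were counted in fixed lists. Of 15 genes of HIF subunits, hydroxylases and cofactors, 1 rose and 5 fell, with a median of -0.14. Epas1, a HIF alpha subunit, read 8.98, 8.53 and 8.56 on the arrays labelled differentiated, against 11.16, 11.11 and 11.14 on the arrays labelled undifferentiated. Hif1a, the other main alpha subunit, read 10.40, 10.64 and 10.46 on the arrays labelled differentiated, against 8.91, 8.80 and 8.62 on the arrays labelled undifferentiated. The arrays read RNA, and the amounts of the alpha subunit proteins were not measured. The RNAs of the alpha subunits stood in opposite directions without overlap: Epas1 fell by 2.45 ± 0.12 (limma adjusted p = 1.55e-07), and Hif1a rose by 1.72 ± 0.11 (adjusted p = 6.96e-07). Their partner Arnt differed by 0.12 ± 0.09 (adjusted p = 0.398), while Arnt2, its paralog, fell by 1.71 ± 0.11. The prolyl hydroxylases Egln1, Egln2 and Egln3, the last of them itself a hypoxia-induced gene, had log2 fold changes of -0.81, -0.33 and -3.62 (limma adjusted p = 0.00176, 0.0371 and 1.1e-06). The call of Egln2 was lost without differentiated replicate 1 (adjusted p = 0.0644) or 3 (0.126) and without undifferentiated replicate 2 (0.065) or 3 (0.156), which left 4 falls in the list. The hydroxylases and Arnt were named after their values were seen.

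Glucose transport and glycolysis genes gave 12 falls and 1 rise among 21, with a median of -0.65. Eno2, an enolase of neurons, fell by 2.09 and Pfkp, a phosphofructokinase, by 1.70, while Hk2, a hexokinase, rose by 0.65. Vascular, matrix and pH genes that low oxygen induces were divided, with 6 falls and 5 rises among 21. Their median was 0.21, and -0.02 without differentiated replicate 2. The vasodilator Adm and the haem-degrading Hmox1 had log2 fold changes of -3.88 and -3.16, and the lysyl oxidase Lox and the surface nucleotidase Nt5e rose by 1.71 and 1.70.

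**Figure D4:**
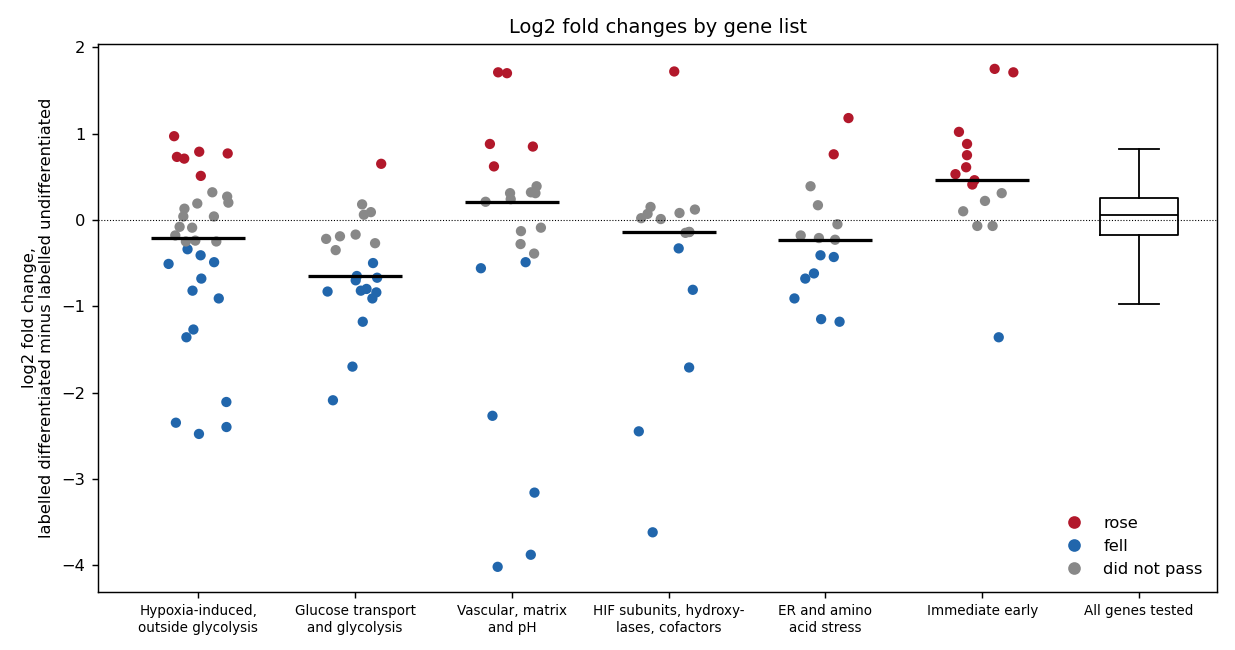
Log2 fold changes, labelled differentiated minus labelled undifferentiated, with points for genes coloured by call and black lines at the list medians; the box for all 14506 genes shows the quartiles and the median, with whiskers from the 5th to the 95th percentile. The hypoxia-induced genes outside glycolysis spread from -2.48 to 0.97 around a median of -0.21, and the glycolysis genes have a median of -0.65.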

How the data were processed

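Per the labels' protocols, 100 ng of RNA from each of 6 neurosphere samples was labelled for Affymetrix arrays. The authors deposited log2 values for 29214 probe sets; the base was inferred from their range, 0.42 to 14.09, and the method of background correction and normalization was not given in the sources used here. The platform's probe table gave 15310 probe sets a single gene symbol; 323 with several and 13581 not listed were left out of the gene fit. Groups come from the sample titles. Differences were fitted on 14506 genes with limma 3.58.1 in R 4.3.3 (lmFit, eBayes with a mean-variance trend, two-sided, Benjamini-Hochberg), with no block and no filter; the code was tested on simulated data. Figures were drawn with matplotlib 3.10.9. All 32 measured target genes are named; from other lists, up to 4, taken by p: 2 on the same side of 0 as the list median and 2 called genes on the opposite side, with exceptions stated in the text. The target genes, lists and alternatives were chosen with earlier results of these data known. A planned comparison of protein sequences was not made. The labels do not say whether replicate numbers pair the arrays, and the main fit did not pair them.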

Additional observations from a re-analysis of the deposited data

How the results depend on the processing

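Of the 13 falls and 6 rises, 12 to 13 and 5 to 6 were called when single arrays were left out; the median of the 32 genes then ran from -0.24 to -0.06. A test without moderation called 9 of the falls and 2 of the rises. Over all 14506 genes it called 1547 lower and 1193 higher. Among the target genes it lost Fam162a (adjusted p = 0.0626), Ccng2 (0.0786), Kdm3a (0.114), Ankrd37 (0.129), Plaur (0.0662), Rab20 (0.0728), Tfrc (0.108) and Wsb1 (0.198). In that test 3 HIF machinery genes fell, 6 glycolysis genes fell and 0 rose, and 5 immediate early genes rose. At an adjusted p under 0.01, 1607 genes fell and 1356 rose over all genes, and 11 target genes fell and 5 rose. With a log2 fold change of at least 1, 6 falls and 0 rises were left. With quantile normalization Kdm3a did not pass (adjusted p = 0.0632) and 2 glycolysis genes rose. Kdm3a and Wsb1 were also lost without the trend (0.0705 and 0.0556) and over all probe sets (0.0666 and 0.0622), as was Egln2 (0.0666 and 0.0592), which left 4 falls in the HIF machinery list. Signs turned only in genes that did not pass and in 1 list median: Higd2a was -0.0042 with array weights and -0.05 to 0.12 when arrays were left out, Ddit4 -0.17 to 0.07, Jmjd6 -0.18 to 0.01, Rbpj -0.05 to 0.10, and the vascular, matrix and pH median -0.02 to 0.22. The cause was not tested. With the replicate number as a block 13 target genes fell and 6 rose. Over all genes 2192 then fell and 2238 rose, against 2158 and 2128 without it. Deviations of same-numbered arrays correlated at 0.115, 0.124 and -0.004, and those of differently numbered arrays at -0.15 to 0.062. The labels do not say that a number pairs arrays, so the block was kept as an alternative only. Pairing by number is not excluded. With dim genes left out, Epo and Ppfia4 were not tested. Signal over background is unknown here, which limits the dim genes.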

Other observations

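Some of the hypoxia-induced genes also answer to other signals. Ero1a, Ddit4 and Stc2 are known to respond to stress of the endoplasmic reticulum or of amino acid supply. In a list of 15 measured genes of these stresses, 7 fell and 2 rose, with a median of -0.23. The chaperones Dnajb9 and Sdf2l1 fell by 1.18 ± 0.10 and 1.15 ± 0.13 (SE), and Psat1 and Phgdh, which make serine, rose by 1.18 ± 0.16 and 0.76 ± 0.12. At the same threshold 14.9% of all genes fell and 14.7% rose.

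Plaur, Maff and Klf10 are known to be induced by growth factors too. Of 15 measured immediate early genes, the first genes switched on by growth factors, 9 rose and 1 fell in the arrays labelled differentiated, with a median of 0.46. By their labels, those arrays came from medium that lacked the mitogens. Egr1, a transcription factor, rose by 1.71 ± 0.14 and Dusp6, a phosphatase of ERK, by 1.75 ± 0.16, while Dusp1, another phosphatase of this family, fell by 1.36 ± 0.11. Plaur rose by 0.73, and Maff and Klf10, at -0.18 and 0.19, did not pass.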
